A study of Mus musculus with 10 samples.

Results

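The 35 genes described here encode proteins that help other proteins fold. They are the transcription factor Hsf1, 4 cytosolic HSP70 genes (Hspa1a, Hspa1b, Hspa2 and Hspa8), 2 HSP110 genes (Hspa4 and Hsph1), 3 mitochondrial chaperone genes (Hspa9, Hspd1 and Hspe1), 2 HSP90 genes (Hsp90aa1 and Hsp90ab1), 5 small heat shock protein genes (Hspb1, Hspb6, Hspb7, Hspb8 and Cryab), the J protein genes Dnaja1, Dnajb1 and Dnajb4 with Bag3, the 8 subunits of the cytosolic chaperonin CCT (Tcp1, Cct2, Cct3, Cct4, Cct5, Cct6a, Cct7 and Cct8), and the 6 subunits of prefoldin (Pfdn1, Pfdn2, Pfdn4, Pfdn5, Pfdn6 and Vbp1). They were picked by symbol from a table of 55426 genes, with the difference between the groups already known, so every value of that difference is given as a description of the genes and supports nothing by itself. All 35 had a mean of at least 0.5 transcripts in each 1000000 (TPM, a level per length) over the 6 aortas, as did 15668 genes in all, which are the genes tested.

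Chaperones bind unfolded or partly folded proteins and keep them from aggregating. HSP70 works with J proteins, which deliver clients and stimulate its ATPase, and with nucleotide exchange factors such as the HSP110 proteins and BAG3, which release them, while prefoldin hands newly made actin and tubulin to the ring-shaped chaperonin CCT for folding. In muscle cells the small heat shock proteins bind to the contractile and cytoskeletal filaments, and under stress HSF1 induces many of these genes by binding inverted repeats of GAA, the heat shock element.

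RNA-Seq was made from the thoracic aortas of 3 control and 3 Prdm16SMKO mice. The controls are labelled Prdm16f/f, with both Prdm16 alleles floxed and no Cre named, and the Prdm16SMKO mice carry in addition SMMHC-CreERT2, a tamoxifen-inducible Cre under the smooth muscle myosin heavy chain (Myh11) promoter, carried on the Y chromosome and therefore studied in males. The methods give a C57BL/6J background and oral tamoxifen for 5 days at 8 weeks of age with 2 weeks of washout, but the sources used here give neither the age nor the hour at harvest, nor whether the RNA-Seq controls received tamoxifen. The methods name floxed mice and mice with the Cre alone as the controls of the study as a whole, whereas the labels of these RNA-Seq controls name the floxed alleles only. On those labels, the loss of Prdm16 and the presence of the Cre cannot be told apart in this comparison. The PRDM16 peaks come from mouse fibroblasts, not smooth muscle cells, which took up either empty lentiviral vector or a lentivirus coding for PRDM16 with a Flag tag over 48 hours and then grew in 2 ug/mL puromycin for 1 week, with 1 anti-Flag library for each.

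Prdm16, a zinc finger transcription factor (chromosome 4, 154316125 to 154636873, GRCm38), had 56.1, 47.6 and 40.3 TPM in the control aortas and 23.3, 33.3 and 23.4 TPM in the Prdm16SMKO aortas. All Prdm16SMKO values lay below all control values, at 55.6% of the control mean, with a log2 fold change of -0.85 and an adjusted P of 0.0725 by limma with Benjamini-Hochberg adjustment, and a TPM over the whole gene also counts reads outside the deleted part. Of all genes tested 107 were lower and 61 higher at an adjusted P below 0.05, and the median log2 fold change of all genes was -0.12. Rescaling of the aortas by median ratios to their geometric mean brought that median to 0.00, and the calls then were 213 lower (1.36%) and 200 higher. The summed TPM of 8 smooth muscle markers was 20934.2 to 24402.6 in controls and 14024.8 to 18188.4 in Prdm16SMKO aortas, without overlap, 4 of the 8 genes lying lower without overlap and none of the 8 being called. Members of the list went both ways, since Actg2 and Myocd had log2 fold changes of 0.38 and 0.25, Actg2 with an unadjusted P below 0.05, and Acta2 alone gave 11024 to 12433 TPM of the sum in controls and 6455 to 8230 TPM in Prdm16SMKO aortas. In a whole aorta, fewer cells of a type and less RNA per cell cannot be told apart.

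Most of the folding genes had a lower mean in Prdm16SMKO aortas than in controls. Hspb6 and Hspb7 were the only members of the 35 that passed the limma test on TPM used here. The log2 fold change was below 0 for 32 of the 35 genes, where 67.9% of all tested genes were below 0, and below the median of all genes for 29. Groups without overlap, each Prdm16SMKO value under each control value, were seen for 20 genes, against 14.9% of all tested genes, and no gene lay higher without overlap, against 4.08% of all. At an adjusted P below 0.05 by limma, 2 of the 35 were lower and 0 higher, against 0.683% of all tested genes lower and 1.07% called in either direction. At an unadjusted P below 0.05, 17 were lower and 0 higher, against 9.45% of all tested genes lower. The genes were chosen on this contrast, so nothing is read from these counts against their backgrounds. The same 2 genes were called, lower, after the median-ratio rescaling. The median log2 fold change of the 35 was -0.28, and -0.16 after the median-ratio rescaling, which also turned Hspa2, Bag3, Pfdn5 and Vbp1 to just above 0.

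Summed over the 35 genes, the level was 7051.6, 5919.6 and 6387.8 TPM in controls 1, 2 and 3 and 4527.4, 5556.2 and 4407.2 TPM in Prdm16SMKO aortas 1, 2 and 3. Every Prdm16SMKO sum was below every control sum, with the second Prdm16SMKO aorta nearest to the controls, and the Prdm16SMKO mean was 74.9% of the control mean. The aortas did not all sit alike within their groups. Taking each gene's log2 value minus its mean over the 6 aortas, the median over the 35 genes was 0.21, 0.11 and 0.09 in controls 1, 2 and 3 and -0.19, -0.02 and -0.25 in Prdm16SMKO aortas 1, 2 and 3. The second Prdm16SMKO aorta thus lay near the mean of all 6 for most of these genes.

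**Figure D1:**
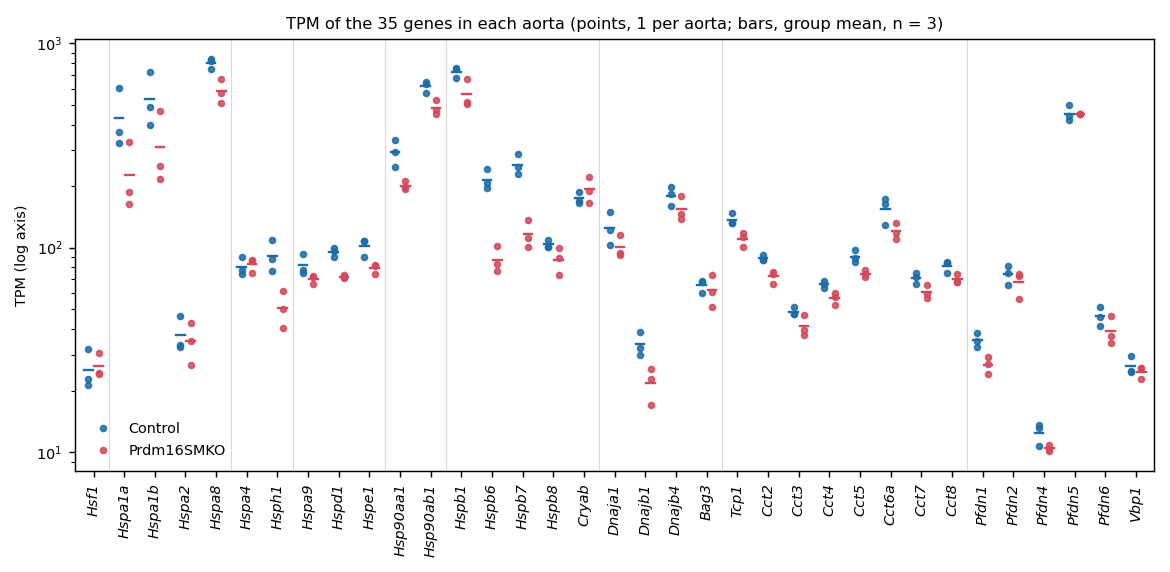
TPM (log axis) of the 35 genes, with 1 point for each aorta, blue for control and red for Prdm16SMKO, and bars at the group means (n = 3). Hspb6 and Hspb7 have the widest gaps between the groups, while the points of genes such as Hsf1, Hspa4, Cryab and Pfdn5 overlap.

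**Figure D2:**
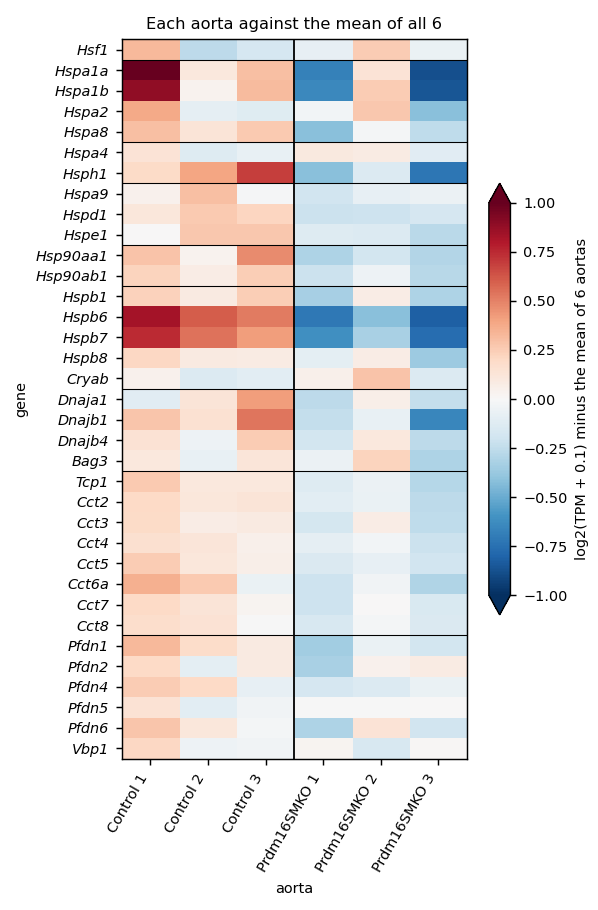
Each of the 35 genes in each of the 6 aortas as log2(TPM + 0.1) minus the gene's mean over the 6 aortas, red above and blue below, with horizontal lines between the gene classes. The right columns are mostly blue, with the second Prdm16SMKO aorta pale (median -0.02), and Hspa1a and Hspa1b stand out in control 1.

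Hspb6, or HSP20, is a small heat shock protein of smooth and cardiac muscle whose phosphorylation accompanies relaxation of smooth muscle. It was the gene with the largest difference of the 35. Hspb6 (ENSMUSG00000036854; chromosome 7, 30552178 to 30555443, plus strand, GRCm38) had 242, 207 and 195 TPM in the control aortas and 83.0, 102 and 77.1 TPM in the Prdm16SMKO aortas. The highest Prdm16SMKO aorta was far under the lowest control, and the Prdm16SMKO mean was 40.6% of the control mean. The log2 fold change was -1.30 (SE 0.14, 95% interval -1.62 to -0.99, n = 3 per group), with an adjusted P of 0.00437 by limma. Leaving out each aorta in turn gave log2 fold changes of -1.42 to -1.21, and over the 14 alternatives the adjusted P ran from 0.000847 to 0.0633, below 0.05 in 12 of them. The annotated first bases of Hspb6 overlap those of Proser3 on the other strand, and whether the counting used strand is not stated. Proser3 averaged 5.10 TPM in controls against 215 TPM for Hspb6. Of the genes tested within 50 kb, among them Lin37, Psenen and Kmt2b, none other than Hspb6 passed the test.

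RefSeq lists starts for Hspb6 in 2 promoter windows, each running from 250 bases before to 50 bases after the start. Both are shown because Hspb6 had the largest difference and no PRDM16 peak at its promoter. Capitals mark a match to the heat shock element GAANNTTC, found in the window of the downstream start at positions -120 to -113 from it. The windows are chr7:30552290-30552589 and chr7:30553051-30553350, plus strand, GRCm38.p6.
Hspb6, upstream start: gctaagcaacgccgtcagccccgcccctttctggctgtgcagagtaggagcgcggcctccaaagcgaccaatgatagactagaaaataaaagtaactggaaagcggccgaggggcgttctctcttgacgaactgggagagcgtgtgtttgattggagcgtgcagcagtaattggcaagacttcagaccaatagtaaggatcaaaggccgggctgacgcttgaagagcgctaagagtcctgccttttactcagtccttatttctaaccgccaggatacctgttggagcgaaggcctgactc
Hspb6, downstream start: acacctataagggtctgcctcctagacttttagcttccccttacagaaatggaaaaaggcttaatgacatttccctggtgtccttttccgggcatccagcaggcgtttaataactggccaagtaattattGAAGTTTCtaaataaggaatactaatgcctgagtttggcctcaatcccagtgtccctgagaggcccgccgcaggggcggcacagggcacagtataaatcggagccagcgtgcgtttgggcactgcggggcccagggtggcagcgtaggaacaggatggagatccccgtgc

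Hspb7, a small heat shock protein of heart and muscle named cvHSP for its cardiovascular expression, was the other gene called. Hspb7 (ENSMUSG00000006221; chromosome 4, 141420779 to 141425311, plus strand) had 287, 249 and 228 TPM in controls and 111, 136 and 101 TPM in Prdm16SMKO aortas. As for Hspb6, the groups were well apart, and the Prdm16SMKO mean was 45.7% of the control mean. The log2 fold change was -1.14 (SE 0.14, 95% interval -1.46 to -0.81, n = 3 per group), with an adjusted P of 0.00836 by limma, -1.26 to -1.04 on leaving out each aorta in turn. The adjusted P ran from 0.00166 to 0.0955 over the 14 alternatives and was below 0.05 in 9 of them. The authors' own list of differentially expressed genes with a PRDM16 peak at the promoter also holds Hspb7, as lower.

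Hspb7 lies 12.9 Mb from Prdm16 on chromosome 4. Within 20 Mb of Prdm16, 252 other genes were tested and 21 were called (8.33%), 20 of them lower, whereas 147 of 15415 genes elsewhere were called (0.954%), 87 lower and 60 higher. Several close neighbours of Hspb7 were called lower with it. Fblim1, which encodes a filamin-binding LIM protein of cell adhesions, had a mean of 1009 TPM in controls and 336 TPM in Prdm16SMKO aortas (log2 fold change -1.58, adjusted P = 0.00268 by limma). Arhgef19, Tmem82 and Slc25a34 had log2 fold changes of -3.03, -2.64 and -3.77. Zbtb17, Spen and Epha2, which lie among them, were not called. These neighbours were named after their values were seen, and the part that position near the floxed gene plays in the Hspb7 value was not tested.

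The Hspb7 promoter window is shown because this was the only called gene with a promoter peak of PRDM16. It is chr4:141420529-141420828, plus strand, GRCm38.p6, and it held no GAANNTTC. The peak lay downstream of it, at chr4:141421634-141421902 in a noncoding part of an exon, with its centre 989 bp past the start. The 29 bases around its summit, chr4:141421760-141421788, are given with the summit base in a capital.
Hspb7, promoter: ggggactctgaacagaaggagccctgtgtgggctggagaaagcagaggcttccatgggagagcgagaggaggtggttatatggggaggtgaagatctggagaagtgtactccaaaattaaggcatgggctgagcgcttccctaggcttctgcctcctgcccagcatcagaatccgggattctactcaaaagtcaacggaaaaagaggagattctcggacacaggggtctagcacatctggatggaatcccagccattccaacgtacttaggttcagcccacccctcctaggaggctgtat
Hspb7, peak summit: ggacagggacccccGctgcctgtggatga

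The remaining small heat shock protein genes had smaller differences, none of them called. Hspb1, the HSP25 or HSP27 protein that binds actin filaments, had 748, 678 and 754 TPM in controls and 506, 670.2 and 515 TPM in Prdm16SMKO aortas. The groups did not overlap, but the second Prdm16SMKO aorta came close to the lowest control (log2 fold change -0.38, adjusted P = 0.267 by limma). Hspb8, or HSP22, the partner of BAG3 in selective autophagy, had 109.6, 101 and 100.4 TPM in controls and 88.6, 99.96 and 73.4 TPM in Prdm16SMKO aortas. Its groups were barely apart (log2 fold change -0.26, adjusted P = 0.463). Cryab, or alpha-B crystallin, ranged from 166 to 187 TPM in controls and from 166 to 223 TPM in Prdm16SMKO aortas, with overlap and a log2 fold change of 0.13 (95% interval -0.16 to 0.43, adjusted P = 0.704). Hspb2, another small heat shock protein gene, overlaps Cryab on the other strand, so that without strand their reads there cannot be told apart, and it was named after its values were seen. It had 63.0 to 76.5 TPM in controls and 67.2 to 87.1 TPM in Prdm16SMKO aortas, with overlap.

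Ratios within an aorta do not depend on how the aortas were scaled. The ratio of Hspb6 to Cryab was 1.29, 1.25 and 1.15 in controls and 0.438, 0.456 and 0.465 in Prdm16SMKO aortas (mean 1.23 ± 0.0739 against 0.453 ± 0.0138, SD, n = 3). Cryab had the highest log2 fold change of the 35 genes (0.13), and Hspb6 (-1.30) and Hspb7 had the lowest. Ratios to Cryab that lie apart between the groups therefore follow from which genes were paired, and nothing is read from them. As a description, Hspb6 exceeded Cryab in each control and was under it in each Prdm16SMKO aorta. For Hspb7 to Cryab the ratio was 1.53, 1.5 and 1.35 in controls and 0.589, 0.613 and 0.609 in Prdm16SMKO aortas, so that the order of these genes turned in the same way. Hspb6 and Hspb7 themselves stayed close, with Hspb6 to Hspb7 at 0.844, 0.833 and 0.852 in controls and 0.744, 0.745 and 0.764 in Prdm16SMKO aortas, the lower Prdm16SMKO ratios being without overlap.

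Hspb6 and Hspb7 were also set against the summed smooth muscle markers, mostly Acta2 and Tagln. That sum was lower in Prdm16SMKO aortas, although Actg2 and Myocd had higher means. Per 1000 TPM of the 8 smooth muscle markers, Hspb6 had 9.92, 9.66 and 9.30 TPM in controls and 5.05, 5.59 and 5.49 TPM in Prdm16SMKO aortas. Hspb7 had 11.8, 11.6 and 10.9 TPM on that scale in controls and 6.78, 7.50 and 7.20 TPM in Prdm16SMKO aortas. Both genes were lower relative to the summed markers in every Prdm16SMKO aorta than in any control. The paper reports less Myh11, Acta2, Tagln and Cnn1 RNA after Prdm16 knockdown in cultured rat smooth muscle cells. It also reports less of the proteins of Acta2, Cnn1 and Tagln in the media of Prdm16SMKO thoracic aortas. For Acta2 RNA in Prdm16SMKO aortas it cites a decrease from the authors' earlier study. The sum is thus not a measure of smooth muscle content alone, and the part of that content in these values was not tested.

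**Figure D3:**
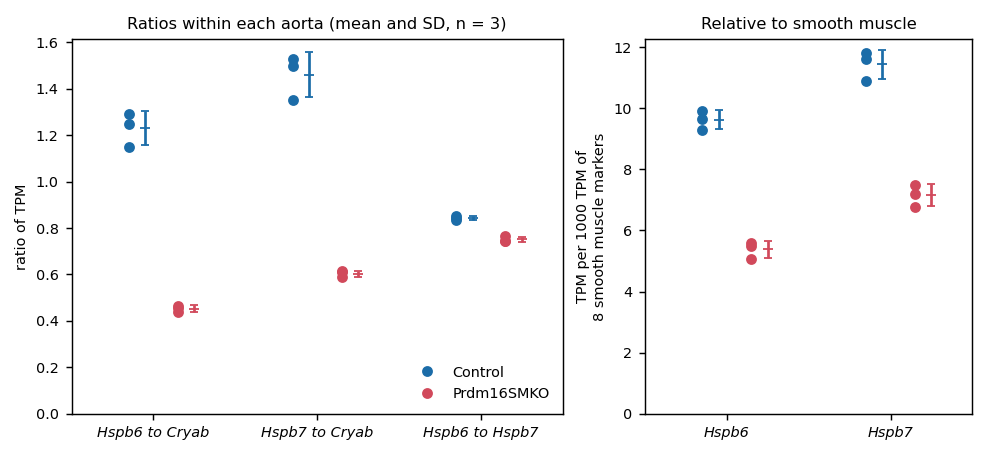
Left, ratios of TPM within each aorta for Hspb6 to Cryab, Hspb7 to Cryab and Hspb6 to Hspb7. Right, TPM of Hspb6 and Hspb7 per 1000 TPM of 8 smooth muscle markers, with points for single aortas and bars for the mean and SD (n = 3), both axes starting at 0. Control and Prdm16SMKO points do not overlap in any of the 5 comparisons, and the ratios to Cryab lie above 1 in controls and below 1 in Prdm16SMKO aortas.

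Markers of heart and skeletal muscle, where Hspb6 and Hspb7 are also expressed, were read beside these genes. The summed TPM of 12 skeletal muscle markers was 15 to 18.6 in controls and 7.7 to 18.2 in Prdm16SMKO aortas, with 6 of the 12 under 1 TPM in every aorta. The 10 cardiac muscle markers summed to 58.6 to 90.7 TPM in controls and 528.5 to 549.2 TPM in Prdm16SMKO aortas, nearly all of it Tnnt2, called higher with a log2 fold change of 4.42. Without Tnnt2 the remaining 9 cardiac markers summed to 41.8 to 62.4 TPM in controls and 37.2 to 46.6 TPM in Prdm16SMKO aortas. The skeletal sum and the cardiac sum without Tnnt2 overlapped between the groups, and the part of other muscle in the Hspb6 and Hspb7 values was not tested.

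Hsf1, the transcription factor that drives the heat shock response, had 32.0, 21.3 and 22.7 TPM in controls and 24.0, 30.5 and 24.4 TPM in Prdm16SMKO aortas. The groups overlapped throughout (log2 fold change 0.07, 95% interval -0.34 to 0.48, adjusted P = 0.913 by limma). Its RNA level says nothing of its activity, which is set by trimerization and phosphorylation of the protein. Control 1 and Prdm16SMKO 2 were the highest of their groups for Hsf1.

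The same 2 aortas were highest for the stress-inducible HSP70 genes. Hspa1a and Hspa1b, neighbouring genes on chromosome 17 at 34969190 to 34972156 and 34956436 to 34959238 (minus strand), have coding sequences identical at 1918 of 1929 aligned bases (99.43%), so the division of reads between them is uncertain and their sum is the firmer value. That sum was 1324.0, 723.3 and 856.7 TPM in controls and 437.6, 796.3 and 379.2 TPM in Prdm16SMKO aortas. The second Prdm16SMKO aorta lay above the second control, so the groups overlapped, and the Prdm16SMKO mean was 55.5% of the control mean. Hspa1a had a log2 fold change of -0.94 (95% interval -1.60 to -0.28, adjusted P = 0.216 by limma) and Hspa1b of -0.83 (-1.50 to -0.15, adjusted P = 0.288). Differences of this size came with a wide spread, and neither gene was called.

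Immediate-early genes, which respond within minutes to tissue handling, were read beside them. Their summed TPM was 925.8, 642.1 and 539.5 in controls and 412.3, 681.0 and 550.3 in Prdm16SMKO aortas. Control 1 and Prdm16SMKO 2 were again highest in their groups, Fos alone standing at 75.9 TPM in control 1 against 16.7 and 27.6 TPM in the other controls. Of the 13 genes 1 was called, Nr4a1, lower in Prdm16SMKO aortas (log2 fold change -1.32, adjusted P = 0.0198 by limma). The list went both ways, with 7 of the 13 above 0, a median log2 fold change of 0.08, 3 lower and 3 higher at an unadjusted P below 0.05, and 3 lower and 2 higher without overlap. Control 1 and Prdm16SMKO 2 were also highest in their groups for genes at 1 TPM or more (14007 and 13935). The same held for summed smooth muscle markers (24402.6 and 18188.4 TPM), blood markers (4620.3 and 2624.8 TPM) and cardiac markers with Tnnt2. It did not hold for the skeletal muscle, adipocyte, fibroblast, endothelial and macrophage sums. The part of handling in the HSP70 values was not tested.

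The promoters of Hspa1a and Hspa1b are shown because they differ at only 4 of 300 bases (98.67% identical) and hold the heat shock element, in capitals, at the same place, positions -104 to -97 from the start. The windows are chr17:34972107-34972406 for Hspa1a and chr17:34959189-34959488 for Hspa1b, minus strand, GRCm38.p6.
Hspa1a, promoter: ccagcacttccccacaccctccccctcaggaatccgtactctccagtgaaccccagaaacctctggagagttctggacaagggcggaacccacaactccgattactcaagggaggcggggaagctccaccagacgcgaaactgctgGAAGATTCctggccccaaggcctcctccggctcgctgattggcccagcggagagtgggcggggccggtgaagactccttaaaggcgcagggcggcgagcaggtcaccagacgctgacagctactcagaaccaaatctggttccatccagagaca
Hspa1b, promoter: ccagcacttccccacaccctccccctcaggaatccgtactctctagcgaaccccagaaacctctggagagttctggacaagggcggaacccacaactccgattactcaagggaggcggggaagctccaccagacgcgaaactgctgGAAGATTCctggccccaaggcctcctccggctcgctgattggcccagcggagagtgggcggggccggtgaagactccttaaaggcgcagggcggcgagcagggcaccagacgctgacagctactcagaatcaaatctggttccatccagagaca

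Hspa8, the constitutive HSC70, was the most abundant of the 35 genes in controls and is also the chaperone of clathrin uncoating. It had 836, 744 and 818 TPM in controls and 509.5, 671 and 571 TPM in Prdm16SMKO aortas. No values overlapped, and Prdm16SMKO aortas averaged 73.1% of controls (log2 fold change -0.46, 95% interval -0.74 to -0.18, adjusted P = 0.151 by limma). Hspa2, the HSP70 best known from the testis, ranged from 32.8 to 46.5 TPM in controls and from 26.7 to 43.1 TPM in Prdm16SMKO aortas, overlapping, with a log2 fold change of -0.12.

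Of the HSP110 exchange factors, the groups lay apart for Hsph1 (HSP105) and overlapped for Hspa4. Hsph1 had 76.5, 88.3 and 108.5 TPM in controls and 50.2, 61.1 and 40.7 TPM in Prdm16SMKO aortas. Its groups were apart, with the Prdm16SMKO mean at 55.6% of the control mean and a log2 fold change of -0.85 (95% interval -1.26 to -0.44). Its adjusted P of 0.0719 by limma missed the threshold, as it did in each of the 14 alternatives, all of them limma fits on TPM. The authors' own analysis of the aortas, by contrast, lists Hsph1 as differentially expressed and lower. That list is limited to genes with a PRDM16 peak at the promoter. Hspa4 ranged from 74.6 to 89.9 TPM in controls and from 75.6 to 87.0 TPM in Prdm16SMKO aortas (log2 fold change 0.04, 95% interval -0.23 to 0.32). The ratio of Hsph1 to Hspa4 was 0.852, 1.18 and 1.40 in controls and 0.577, 0.709 and 0.539 in Prdm16SMKO aortas, without overlap. Hsph1 was thus lower than its relative in each Prdm16SMKO aorta, and higher than it in 2 of the 3 controls.

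The Hsph1 promoter at chr5:149636287-149636586 (minus strand, GRCm38.p6) is shown because it is 1 of 3 promoters here with the longer heat shock element of 3 units, in which GAANNTTC is followed after 2 free bases by GAA or preceded before 2 free bases by TTC. It stands in capitals at positions 36 to 48 from the start.
Hsph1, promoter: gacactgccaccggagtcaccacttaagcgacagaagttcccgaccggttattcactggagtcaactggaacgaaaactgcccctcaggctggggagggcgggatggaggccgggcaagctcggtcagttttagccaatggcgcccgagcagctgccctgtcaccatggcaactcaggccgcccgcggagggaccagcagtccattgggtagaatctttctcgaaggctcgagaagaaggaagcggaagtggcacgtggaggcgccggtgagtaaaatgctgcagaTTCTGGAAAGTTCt

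The HSP90 genes encode the cytosolic chaperones of kinases and steroid receptors. Hsp90aa1, the inducible form, had 295, 247 and 335 TPM in controls and 194, 212 and 197 TPM in Prdm16SMKO aortas. Hsp90ab1, the constitutive form, had 635, 572 and 647 TPM in controls and 469.8, 526 and 448 TPM in Prdm16SMKO aortas. Neither gene's groups overlapped, and the log2 fold changes were -0.53 (95% interval -0.82 to -0.24, adjusted P = 0.107 by limma) and -0.36 (-0.61 to -0.12, adjusted P = 0.201). The inducible form was the smaller in each aorta, at 0.464, 0.432 and 0.518 of the constitutive form in controls and 0.414, 0.404 and 0.439 in Prdm16SMKO aortas, ratios that overlapped.

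The 3 mitochondrial chaperones were each lower in Prdm16SMKO aortas without overlap, against 14.9% of all tested genes, and none was called. Hspd1, the HSP60 chaperonin, had 89.6, 99.1 and 96.3 TPM in controls and 71.4, 71.8 and 73.5 TPM in Prdm16SMKO aortas (log2 fold change -0.39, adjusted P = 0.135 by limma). Hspe1, its HSP10 lid, had 89.6, 108 and 108 TPM in controls and 82.0, 81.3 and 74.2 TPM in Prdm16SMKO aortas (log2 fold change -0.36, adjusted P = 0.244). The proportion of the chaperonin to its lid overlapped between the groups, with Hspd1 to Hspe1 at 0.892 to 1.00 in controls and 0.871 to 0.991 in Prdm16SMKO aortas. Hspa9, the mitochondrial HSP70 mortalin, had 78.0, 93.1 and 75.1 TPM in controls and 66.1, 71.5 and 72.7 TPM in Prdm16SMKO aortas, groups that were barely apart (log2 fold change -0.22, adjusted P = 0.484). The median of the class was -0.36, and -0.24 after the median-ratio rescaling.

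Hspd1 and Hspe1 are transcribed away from each other from a shared region, shown in the window of Hspe1, chr1:55087898-55088197 (plus strand, GRCm38.p6). The capitals mark overlapping matches to both phases of the 3-unit heat shock element, which the Hspd1 window on the other strand holds as well, so the count of 3 promoters includes this region under both genes.
Hspe1, promoter: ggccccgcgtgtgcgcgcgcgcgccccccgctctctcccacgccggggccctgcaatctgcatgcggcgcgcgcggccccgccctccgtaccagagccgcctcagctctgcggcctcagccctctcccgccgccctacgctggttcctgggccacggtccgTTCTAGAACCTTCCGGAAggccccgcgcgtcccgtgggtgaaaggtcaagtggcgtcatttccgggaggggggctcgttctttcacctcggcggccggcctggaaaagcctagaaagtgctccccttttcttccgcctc

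Among the cochaperones of HSP70, the J protein gene Dnajb1, the stress-inducible HSP40, had 32.4, 29.8 and 38.7 TPM in controls and 22.7, 25.5 and 16.99 TPM in Prdm16SMKO aortas. Its groups were apart, at 64.5% of the control mean (log2 fold change -0.64, 95% interval -1.04 to -0.24, adjusted P = 0.161 by limma). Dnajb4, the most abundant of this class, had 183, 160.0 and 197 TPM in controls and 146, 178 and 138 TPM in Prdm16SMKO aortas, with overlap (log2 fold change -0.23, adjusted P = 0.517). Dnaja1, another HSP40, ranged from 103 to 149 TPM in controls and from 92.5 to 116 TPM in Prdm16SMKO aortas. Bag3, which couples HSP70 to autophagy of damaged filament proteins in muscle, ranged from 59.9 to 68.7 TPM in controls and from 51.1 to 73.7 TPM in Prdm16SMKO aortas. Neither of these last genes was apart between the groups, and Bag3 had a log2 fold change of -0.10, near the median of all genes.

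**Figure D4:**
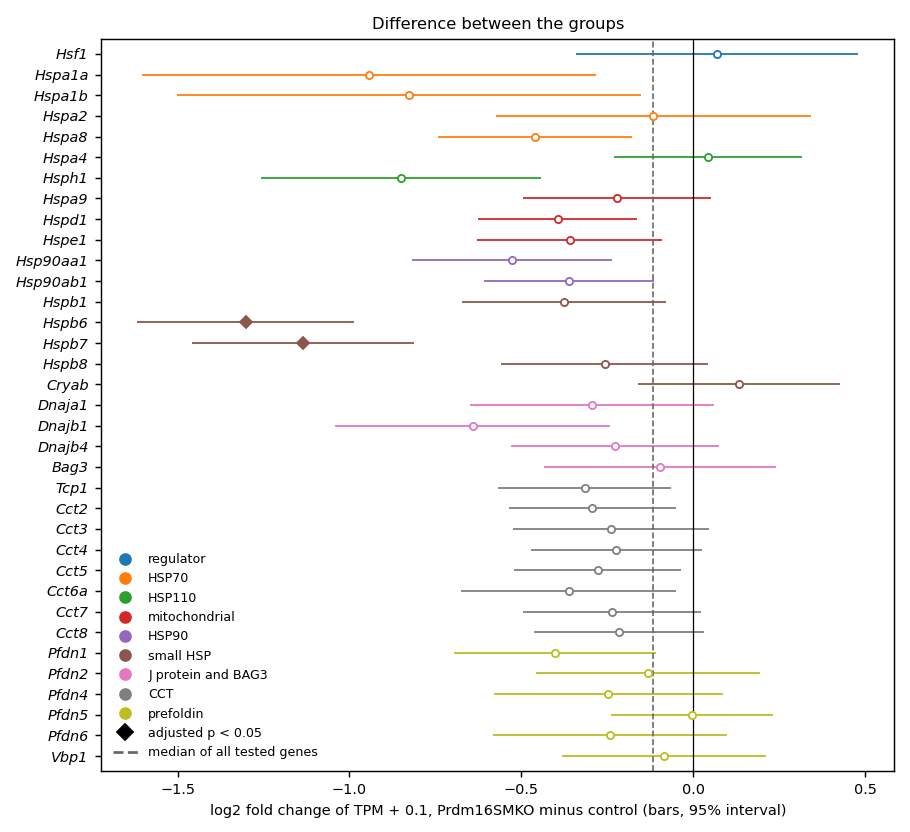
Log2 fold change of TPM + 0.1, Prdm16SMKO minus control, for the 35 genes, coloured by class, with bars for the 95% interval from limma (n = 3 per group), filled diamonds for an adjusted P below 0.05 and a dashed line at the median of all tested genes (-0.12). Hspb6 (-1.30) and Hspb7 (-1.14) stand apart on the left, the 8 CCT subunits lie together between -0.36 and -0.22, and Hsf1, Hspa4 and Cryab lie just above 0.

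The 8 CCT subunits, which assemble in equal numbers into a double ring that folds actin and tubulin, all had lower means in Prdm16SMKO aortas. Their summed TPM was 790.4, 739.5 and 687.1 in controls and 600.2, 651.6 and 566.5 in Prdm16SMKO aortas, without overlap, the Prdm16SMKO mean being 82.0% of the control mean. All 8 had log2 fold changes below 0 (67.9% of all tested genes), between -0.36 and -0.22, with a median of -0.26, and 7 of the 8 lay lower without overlap (14.9% of all). None was called, their adjusted P values by limma running from 0.273 to 0.472, and 4 had an unadjusted P below 0.05 (9.45% of all tested genes, lower). After the median-ratio rescaling the median was -0.14.

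By subunit, Tcp1 (CCT alpha) had 147, 132 and 132 TPM in controls and 112, 118 and 101 TPM in Prdm16SMKO aortas. Cct2 (beta) had 91.7, 86.6 and 87.3 TPM against 74.2, 76.2 and 66.5 TPM, in the same order of groups. Cct5 (epsilon) had 97.6, 88.6 and 85.3 TPM against 74.4, 77.5 and 71.9 TPM. In these 3 genes the gap between the groups was wider than the range within the controls for Cct2 only. Cct3 (gamma) had 51.1, 47.1 and 47.5 TPM in controls and 39.5, 47.1 and 37.5 TPM in Prdm16SMKO aortas, its highest Prdm16SMKO value being just under the lowest control. Cct4 (delta) had 68.5, 66.6 and 63.4 TPM against 57.4, 60.2 and 52.6 TPM. Cct7 (eta) had 75.2, 71.7 and 66.8 TPM against 56.7, 65.8 and 59.1 TPM. For these subunits too the second Prdm16SMKO aorta was the highest of its group. Cct8 (theta) had 85.4, 83.7 and 75.5 TPM against 67.7, 74.5 and 68.2 TPM. Cct6a (zeta), the most abundant subunit at the RNA level, had 173, 163 and 129 TPM against 118, 132 and 110.0 TPM, and was the only subunit whose groups overlapped, through control 3. Thus Prdm16SMKO means were between 77.4% (Cct6a) and 86.1% (Cct8) of control means.

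Prefoldin, the jellyfish-shaped complex that brings actin and tubulin to CCT, had 1 of 6 subunits lower without overlap, against 14.9% of all tested genes. Its 6 subunits summed to 710.1, 603.1 and 624.2 TPM in controls and 599.4, 629.5 and 625.6 TPM in Prdm16SMKO aortas, overlapping, with the Prdm16SMKO mean at 95.7% of the control mean. Most of that sum was Pfdn5, an alpha-type subunit also known as a MYC-binding protein, with 496, 419 and 439 TPM in controls and 449, 448 and 451 TPM in Prdm16SMKO aortas, a log2 fold change of -0.0036 (95% interval -0.24 to 0.23). The subunit without overlap was Pfdn1, of the beta type, at 38.4, 34.9 and 32.7 TPM in controls and 24.1, 29.2 and 27.0 TPM in Prdm16SMKO aortas. Its groups lay apart, with a log2 fold change of -0.40 (95% interval -0.70 to -0.11, adjusted P = 0.235 by limma). The beta-type Pfdn2, Pfdn4 and Pfdn6 and the alpha-type Vbp1 overlapped between the groups, with log2 fold changes of -0.13, -0.25, -0.24 and -0.08. Pfdn4 was the least abundant of the 35 genes, at 10.7 to 13.6 TPM in controls and 10.1 to 10.9 TPM in Prdm16SMKO aortas.

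The control levels, part of the difference known when the genes were chosen, place most of these genes among abundant transcripts of the aorta. On the TPM scale, which is per length, their control means ran from the 58.2 percentile of tested genes (Pfdn4, 12.5 ± 1.5 TPM, SD, n = 3) to the 99.5 percentile (Hspa8, 799 ± 49.0 TPM). Among HSP70 genes the order was Hspa8, Hspa1b (536 ± 167 TPM), Hspa1a (432 ± 149 TPM) and Hspa2 (37.6 ± 7.67 TPM), with overlapping control values only between Hspa1b and Hspa1a. Among small heat shock proteins it was Hspb1 (727 ± 41.9 TPM), Hspb7 (255 ± 29.7 TPM), Hspb6 (215 ± 24.6 TPM), Cryab (174 ± 11.5 TPM) and Hspb8 (104 ± 5.14 TPM), Hspb7 and Hspb6 overlapping. The constitutive Hsp90ab1 (618 ± 39.9 TPM) exceeded Hsp90aa1 (292 ± 43.9 TPM) in each control.

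Complex partners were not equal at the RNA level. The CCT subunits, equal in number in the complex, ran in controls from Cct6a (155 ± 23.0 TPM) and Tcp1 (137 ± 8.82 TPM), which overlapped, over Cct5, Cct2, Cct8, Cct7 and Cct4 to Cct3 (48.6 ± 2.19 TPM), and of these the neighbours Cct5 and Cct2 and the neighbours Cct7 and Cct4 overlapped as well. Pfdn5 (452 ± 40.2 TPM) stood far above the other prefoldin subunits, followed without overlap by Pfdn2 (74.0 ± 7.52 TPM), Pfdn6, Pfdn1, Vbp1 and Pfdn4. The mitochondrial Hspe1, Hspd1 and Hspa9 (102 ± 10.6, 95.02 ± 4.88 and 82.1 ± 9.69 TPM) overlapped from each neighbour to the next, and so did Hsph1 and Hspa4. Processed copies can take reads from some of these genes, and the table lists 15 pseudogenes of 6 of them, of which 1 of Hspe1 reached 3.11 TPM and those of Hspd1 at most 0.81 TPM, while those of Cct3, Dnaja1, Hspa9 and Tcp1 were listed at 0.

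Other folding genes outside the 35 were counted from lists chosen with earlier results known, which also hold some transcription factors. No gene of these lists was called by limma. Over all tested genes 67.9% were below 0, 14.9% lay lower and 4.08% higher without overlap, and 9.45% were lower at an unadjusted P below 0.05. Of 41 further chaperones and cochaperones, mostly cytosolic, 39 were tested. They include Hsf2 and Hsf4 and some genes of the endoplasmic reticulum, such as Serpinh1. In that list 8, Serpinh1 among them, lay lower without overlap and none higher. An unadjusted P below 0.05 by limma was seen for 4, all lower, and the median log2 fold change was -0.15, near that of all genes. Of 21 genes of the endoplasmic reticulum and its stress response 11 lay lower and 1, Ddit3, higher without overlap. There 9 lower and 1 higher had an unadjusted P below 0.05 by limma, and the median was -0.27. That list holds the transcription factors Atf4, Atf6, Ddit3 and Xbp1, and Atf4 was among the genes lower without overlap. Of 10 further mitochondrial chaperones and proteases 2 lay lower without overlap, 2 had an unadjusted P below 0.05, and the median was -0.13. All 12 actin and tubulin genes, whose products are the clients of prefoldin and CCT, had log2 fold changes below 0, with a median of -0.34, 5 of them without overlap and 5 with an unadjusted P below 0.05. After the median-ratio rescaling these medians were -0.03 for the mostly cytosolic, -0.15 for the endoplasmic reticulum, -0.01 for the mitochondrial and -0.22 for the actin and tubulin list. The smallest adjusted P values in these lists, picked after they were seen, were those of Tuba1c, an alpha tubulin (-0.83, adjusted P = 0.0845), Serpinh1, the collagen chaperone HSP47 (-0.48, adjusted P = 0.102), and Calr, the calcium-binding chaperone calreticulin (-0.47, adjusted P = 0.110).

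PRDM16 anti-Flag peaks, called by the authors in 1 fibroblast library, had their centre within 2 kb of a curated RefSeq start at 19 of the 35 genes, against 43.3% of the tested genes with such a start (5690 of 13142). The library of the empty vector, with 67 peaks in all against 11271, had none at these genes. The 19 were Hsf1, Hspa1a, Hspa1b, Hspa8, Hspa4, Hsph1, Hspd1, Hspe1, both HSP90 genes, Hspb1, Hspb7, Cryab, Dnajb1, Bag3, Cct5, Cct7, Cct8 and Pfdn4. Peaks were at hand for 3 of 4 HSP70 genes, 2 of 2 HSP110 genes and 2 of 2 HSP90 genes, but for 3 of 8 CCT and 1 of 6 prefoldin genes. With 1 library for each condition there was no test, and the peaks were part of how the genes were chosen. There were 18 genes with a peak at a window of 1 kb, against 41.4% of the tested genes. At a q of at most 0.001 there were 16, against 39.6%, and this left out Hspb7, Cct5 and Cct8.

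These 19 genes held 22 distinct peaks. Of these, 1 in an intron of Hspd1, with its centre 287 bp past that gene's start, counted for Hspe1 as well. Fold enrichment over the local background was 3.03 to 7.73 with a median of 4.47, against a median of 5.27 over the whole list, and 15 of the 22 were under that median. The highest was at Hsp90aa1 (7.73, percentile 90.1 of the list, chromosome 12, 110695930 to 110696290, intron), followed by Hspa1a (7.13, chromosome 17, 34971804 to 34972122) and by Hsph1, Bag3 and Pfdn4 (6.68 each). The peak of Hspb7 was weak at 3.87 (percentile 14.7, −log10 q 2.495), and that of Cct8, the lowest at 3.03, had a q of 0.0289. Reads of Hspa1a and Hspa1b cannot be placed with certainty between the copies, and their peaks share this limit.

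Most of the peaks lay inside the gene and not at the start. In 17 of the 23 pairs of a peak and a gene the peak centre was downstream of the start, as at Hsp90aa1 (285 bp), Hsph1 (407 bp), Bag3 (547 bp) and Hspb1 (556 bp), and only those of Cct5, Dnajb1 and Pfdn4 covered it. The centre farthest from a start within the window stood at -1760 bp, upstream of Hspa1b, and the nearest outside it was 8.31 kb away, at Cct6a. Several peaks also lay at the promoter of another gene, as with Cryab and Hspb2, Hsf1 and Bop1, Cct7 and Pradc1, and Hspa1a and Hspa1l. Hspb6 had its nearest peak 17.7 kb upstream (fold enrichment 6.33).

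Peaks and differences in RNA are set side by side only as a description, since both were part of how the genes were chosen. The same split over all tested genes was not made, and nothing is read from it. Of the 20 genes lower without overlap, against 14.9% of all tested genes, 12 had a promoter peak and 8 had none. Of the called genes Hspb7 had one and Hspb6 had not. The median log2 fold change was -0.36 for the 19 genes with a peak and -0.24 for the 16 without, and the cells of the peaks were not those of the RNA. Cryab, Hsf1 and Hspa4, the 3 genes with a log2 fold change above 0, each had a peak.

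**Figure D5:**
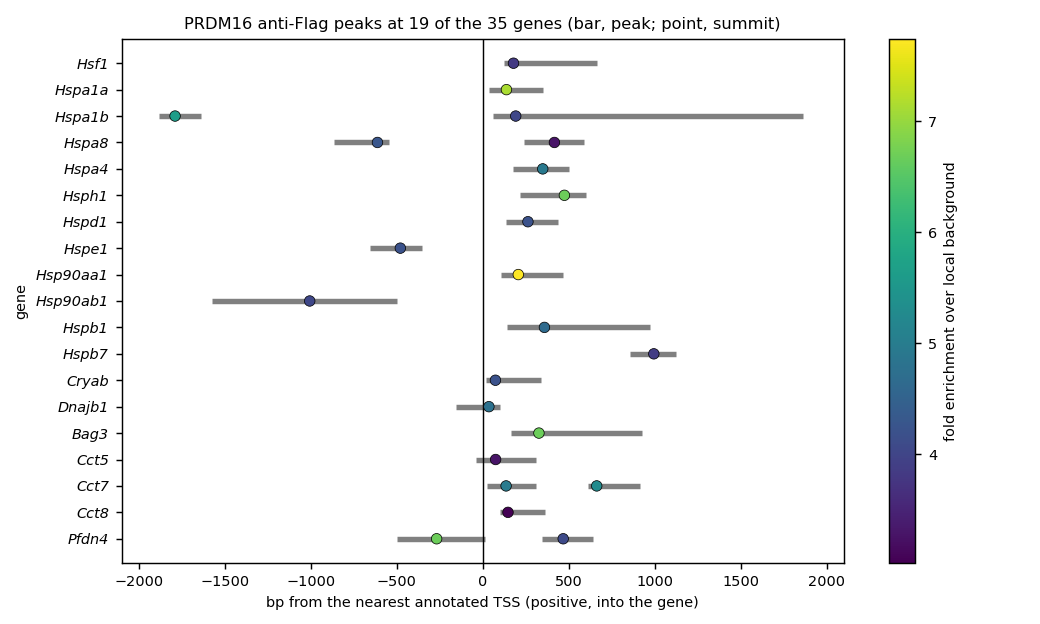
Position of the PRDM16 anti-Flag peaks at 19 of the 35 genes, in bp from the nearest annotated start (positive into the gene), with bars for the peak, points for its summit and colour for its fold enrichment (1 library). Most summits lie past the start, that of Hspb7 at 995 bp, and the brightest point is Hsp90aa1 at 7.73.

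RefSeq promoter windows of 300 bases were found for 27 of the 35 genes and searched on both strands. The element GAANNTTC stood in 11 of them, Bag3, Cct2, Dnaja1, Hspa1a, Hspa1b, Hspb1, Hspb6, Hspb8, Hspd1, Hspe1 and Hsph1, against 9.04% of all genes with a window (2442 of 27025). The 3-unit form stood in Hspd1, Hspe1 and Hsph1, against 0.662% of all. Hspb1 had 2 matches, at positions -117 to -110 and -97 to -90 from the start. Of the CCT and prefoldin genes with a window, only Cct2 held the element, at -42 to -35. A match is a match of letters and not a site bound by HSF1. Windows of Cct4, Cryab, Hsf1, Hsp90aa1, Hsp90ab1, Hspa8, Hspa9 and Pfdn1 were not used here.

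The remaining cell markers were read once beside all 35 genes. The summed TPM of brown adipocyte markers was 100.9 to 604.3 in controls and 146.5 to 512.5 in Prdm16SMKO aortas, and that of white adipocyte markers 348.5 to 1268.2 and 385.9 to 830.9. Fibroblast markers summed to 1464.8 to 1926.6 TPM in controls and 1211.2 to 1592.7 TPM in Prdm16SMKO aortas, but only Col1a1 and Col1a2 had lower means, the other 4 of the 6 being higher, Lum with an unadjusted P below 0.05, and the median log2 fold change was 0.15. Endothelial markers summed to 91.7 to 112.4 and 62.4 to 138.4 TPM, macrophage markers to 38.2 to 56.6 and 29.3 to 51.4 TPM, and blood markers to 944.0 to 4620.3 and 761.1 to 2624.8 TPM. None of these genes was called by limma, and none of the marker genes of any list was at 0 in all 6 aortas. Each of these sums overlapped between the groups, unlike that of smooth muscle, whose part in the lower folding genes was not tested.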

How the data were processed

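RNA-Seq (poly(A) selected, paired 151 bp reads) covered 3 control and 3 Prdm16SMKO thoracic aortas, grouped by the sample labels, and anti-Flag ChIP-Seq (paired 101 bp reads) from fibroblasts with Flag-tagged PRDM16 or vector, 1 library each. The authors deposited TPM for each aorta, transcripts per length scaled to the same total in each sample, so the depth behind a gene is unknown and no counting interval was computed. The submitters' processing notes list STAR 2.7.8a, RSEM 1.3.3, cutadapt 2.3 and Bowtie2 2.3.4.1, among others, with GRCm38. Whether counting used strand, and the annotation, are not given in the sources used here. For ChIP-Seq the authors ran MACS2 with a q of 0.01 and the human genome size preset, and which library served as control is not stated. The deposited peak lists hold the fold enrichment as a ratio over local background, −log10 p and −log10 q, which were used as deposited, and an integer score, which was not used. Some peaks in the deposited list have a q above that threshold, up to 0.0483. The IgG libraries were not analysed here.

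Differences were tested with limma 3.58.1 in R 4.3.3 (lmFit, and eBayes with a trend) on log2(TPM + 0.1) over 15668 genes, those averaging 0.5 TPM or more, with Benjamini-Hochberg adjustment over all of them and a threshold of 0.05. A fold change is on that log2(TPM + 0.1) scale. With 3 against 3 aortas an exact permutation test could not go below 0.1. Nothing states whether replicates are single or pooled animals, and P values measure the spread between these samples. Replicate numbers were not used as pairs, since deviations of same-numbered aortas from their groups had correlations of -0.025, -0.07 and -0.009.

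The 35 genes, the gene lists and the 20 Mb window around Prdm16 were chosen with earlier results of these data known. Every gene is named, with a value for each aorta if it was called, if its groups did not overlap or if it had the highest mean of its class, and for Hsf1 and Prdm16. Marker lists cover smooth, skeletal and cardiac muscle, brown and white adipocytes, fibroblasts, endothelium, macrophages, blood and immediate-early genes. Gene positions are from GENCODE vM21, and starts and promoters from RefSeq, both on GRCm38. Tried as well were other pseudocounts (1, 0.01) and filters (mean TPM from 1, or none), median-ratio rescaling, quantile normalization, eBayes without a trend, a replicate block, leaving out each aorta in turn, promoter windows of 1 and 5 kb, the peak summit, a q of at most 0.001, and the 3-unit element. Python 3.11.15, pandas 2.3.3, numpy 2.4.6, Biopython 1.88 and matplotlib 3.10.9 were used.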

Additional observations from a re-analysis of the deposited data

How the results depend on the processing

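Of the 35 genes, 2 were called with pseudocounts of 1 and 0.01, either TPM filter, median-ratio rescaling and quantile normalization, and 0 with eBayes without a trend (Hspb6 adjusted P = 0.0595, Hspb7 0.0793, log2 fold changes as before). Leaving out each aorta in turn gave 0 to 2 calls. Without control 2 the adjusted P was 0.0633 for Hspb6 and 0.0955 for Hspb7, and without controls 1 and 3 and Prdm16SMKO 1 it was 0.076, 0.0566 and 0.0834 for Hspb7, at log2 fold changes of -1.05 to -1.32, with fewer samples in the fit. The genes called of all tested were 168, and 197 at a mean TPM of at least 1, 110 without a filter, 143 and 145 with pseudocounts of 1 and 0.01, 413 after median-ratio rescaling, 392 after quantile normalization, 48 without a trend and 29 to 92 on leaving out an aorta. Median-ratio rescaling moved the median log2 fold change toward 0 in 8 classes, by its own construction: for mitochondrial genes from -0.36 to -0.24, CCT from -0.26 to -0.14, prefoldin from -0.19 to -0.06, J proteins with Bag3 from -0.26 to -0.14, HSP70 from -0.64 to -0.52, HSP110 from -0.40 to -0.28, HSP90 from -0.44 to -0.32 and small heat shock proteins from -0.38 to -0.25, and turned Hspa2, Bag3, Pfdn5 and Vbp1 to 0.0066, 0.0268, 0.119 and 0.0379. Quantile normalization turned Hspa2, Bag3, Pfdn2, Pfdn5 and Vbp1 to 0.0242, 0.059, 0.0187, 0.142 and 0.0315. On leaving out each aorta in turn, the sign turned for Hsf1 (-0.0426 to 0.2497, turning without control 2 or Prdm16SMKO 2), Hspa2 (-0.2805 to 0.0644, without control 1 or Prdm16SMKO 3), Hspa4 (-0.0112 to 0.1228, without control 2), Bag3 (-0.2292 to 0.0339, without Prdm16SMKO 3) and Pfdn5 (-0.0559 to 0.0667, without control 1). None of these turned genes was called in any setting. Genes with a log2 fold change below 0 numbered 27 to 34 over the alternatives. The heat shock element count was 11 for GAANNTTC and 3 for the 3-unit form. With the replicate number as a block, 2 of the 35 genes and 184 of all were called, but no aorta correlated best with the aorta of its own number (-0.025, -0.07 and -0.009), so the numbers are only names. The depth behind each TPM and peak is unknown, peaks rest on 1 library, and 3 aortas per group left intervals of 0.23 to 0.68 on either side of the log2 fold changes.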
